A study of Mus musculus with 12 samples.

Results

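The genes described here are 9 of the 52550 rows of the count table: 4 processed pseudogenes, the 4 genes on mouse chromosome 9 that they were copied from, and Zfp949, a zinc finger gene on the same chromosome. The pairs are Gm8210 with Rpl29, Gm11868 with Cyb5r4, Gm7049 with Me1, and Tma7-ps with Tma7. The pseudogenes were chosen by their counts, as ones higher in knockout than in control fat, the parents for being their parents, and Zfp949 by name, with earlier values of the same comparison in view, so every value of knockout against control below is a description of how the 9 were picked. The rule gave no threshold. All 9 gene identifiers were found, and all 9 passed the filter on low counts in both comparisons of knockout with control.

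RNA was sequenced from 12 libraries of mouse fat, 3 in each of 4 groups. AKO mice carried an adipose-specific knockout of Mcu, the pore protein through which mitochondria take up calcium, on a background of floxed Mcu alleles (Mcu fl/fl). Controls were Mcu fl/fl mice and so carried the same floxed alleles. Both genotypes were fed a high-fat diet, and the design text names CRISPR/Cas9 for the making of the line. The groups are WAT AKO and WAT control (inguinal white adipose tissue, WAT) and BAT AKO and BAT control (brown adipose tissue, BAT). The sources used here give no Cre driver, floxed exon, strain, age or sex. They do not say that each library came from its own animal either, so a p-value covers only the variation among the libraries at hand, which may be technical.

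A processed pseudogene is a copy of a messenger RNA that was reverse transcribed and inserted elsewhere in the genome, without introns and usually without the promoter of its parent. Because it keeps most of the parent's letters, a short read from 1 of the pair can match the other, and which of them receives the count can turn on a single base. The parents have unrelated roles. Rpl29 is a protein of the large ribosomal subunit. Cyb5r4 is a reductase with a cytochrome b5 domain of its own, and mice that lack Cyb5r4 lose white fat. Me1 is the cytosolic malic enzyme that makes NADPH for fatty acid synthesis, and Tma7 a small protein associated with the translation machinery.

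Total counts ran from 15692588 to 18967159 per library. Mcu averaged 11.2 ± 1.21 CPM in WAT AKO and 18.5 ± 0.454 CPM in WAT control, and 10.8 ± 3.33 CPM in BAT AKO and 26.5 ± 2.42 CPM in BAT control (SD, n = 3 each). CPM here are counts scaled to library size after TMM normalisation over all 12 libraries. The 8 adipocyte markers were found in each group and together took 1.62% to 1.76% of counts in WAT AKO, 1.92% to 2.03% in WAT control, 1.53% to 1.73% in BAT AKO and 1.49% to 1.62% in BAT control. The 14 skeletal muscle markers reached 2.48% of counts in WAT AKO 2, 1.41% in WAT control 1 and 1.87% in BAT AKO 2. The 4 B lymphocyte markers took 0.0310% to 0.0800% of counts in WAT AKO, against 0.000153% to 0.0265% in WAT control, with no marker of either list at 0 in a whole group. The 3 T lymphocyte markers took 0.00690% to 0.0128% in WAT AKO, against 0.000179% to 0.00654% in WAT control. The 3 macrophage markers took 0.0215% to 0.0263% in WAT AKO, against 0.0266% to 0.0383% in WAT control without overlap, and 0.00477% to 0.00610% in BAT AKO, against 0.00580% to 0.00690% in BAT control. The part of these cells in the values below was not tested, and in bulk tissue fewer cells of a type and less RNA per cell cannot be told apart.

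Gm8210 had almost no counts in control fat. It is a copy of the whole Rpl29 coding sequence on chr1:43189156-43189638 (mm10, plus strand), in an intron of Fhl2, which is transcribed from the other strand, while Rpl29 lies on chr9:106429454-106431568 (plus strand). The copy had 180, 152 and 198 counts in the WAT AKO libraries, against 3, 3 and 2 counts in the WAT control libraries. In brown fat it had 76, 89 and 49 counts in the BAT AKO libraries, against 0, 3 and 1 counts in the BAT control libraries. Every AKO library was above every control library in both tissues. Fhl2 itself had 310 counts over all 12 libraries. The log2 fold change of AKO over control was 5.87 (SE 0.246) in WAT and 5.62 (SE 0.585) in BAT, and the ratio of summed, depth-scaled counts was 67.1 (95% counting interval 33.8 to 156) in WAT and 51.7 (19.9 to 192) in BAT.

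Rpl29 went the other way. The parent had 1753, 1692 and 2025 counts in the WAT AKO libraries, against 2589, 3468 and 2292 in the WAT control libraries, and 821, 688 and 656 counts in the BAT AKO libraries, against 1397, 1483 and 1535 in the BAT control libraries. The groups did not overlap in either tissue. Rpl29 averaged 84.3 ± 8.53 CPM in WAT AKO and 137 ± 25.8 CPM in WAT control, a log2 fold change of -0.72 (SE 0.153). In brown fat it averaged 51.4 ± 4.56 CPM in BAT AKO and 107 ± 4.37 CPM in BAT control, a log2 fold change of -1.04 (SE 0.0921).

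Gm8210 was higher in AKO fat by fewer CPM than Rpl29 was lower. The part of read assignment between the copies in these differences was not tested. Rpl29 differed by -52.8 CPM between WAT AKO and WAT control, and Gm8210 by 8.01 CPM. In brown fat the differences were -55.4 CPM for Rpl29 and 4.998 CPM for Gm8210. With both summed, the pair averaged 92.4 ± 9.19 CPM in WAT AKO and 137 ± 25.8 CPM in WAT control, and 56.5 ± 5.38 CPM in BAT AKO and 107 ± 4.35 CPM in BAT control. Summed over Rpl29 and its 59 annotated copies in the count table other than Uimc1, the levels were 117 ± 13.0 CPM in WAT AKO and 161 ± 26.9 CPM in WAT control, and 76.2 ± 4.84 CPM in BAT AKO and 125 ± 3.56 CPM in BAT control.

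The 483 bases of Gm8210 aligned to the 483 coding bases of Rpl29 without a gap and differed at 3 of them, an identity of 99.38%. Counted from 1 at the A of the Rpl29 start codon, with the Rpl29 base first and the copy's base last, these are C72A, C300T and T423C. None of the 160 encoded residues differs, and the reading frame is open. The 41 bases around each difference are printed because these 3 bases are the only letters of the coding sequence that differ within the pair. The sequences were read from the GENCODE M21 transcripts (mm10). All are from the coding strand, 5′ to 3′, and capitals mark the differing base. The first pair of lines spans coding bases 52 to 92, the second 280 to 320 and the third 403 to 443. In Gm8210 these stretches lie at chr1:43189207-43189247, chr1:43189435-43189475 and chr1:43189558-43189598.
Rpl29: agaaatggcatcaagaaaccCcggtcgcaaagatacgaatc
Gm8210: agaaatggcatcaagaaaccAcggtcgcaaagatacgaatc
Rpl29: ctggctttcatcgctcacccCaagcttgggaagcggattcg
Gm8210: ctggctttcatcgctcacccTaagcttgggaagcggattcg
Rpl29: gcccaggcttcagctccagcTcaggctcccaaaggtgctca
Gm8210: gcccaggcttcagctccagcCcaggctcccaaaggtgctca

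Rpl29 has many other copies, and they did not all move with Gm8210. The annotation holds 68 of them at 90% identity or more over at least 100 bases, of which 60 are in the count table, 23 of these with no count in any library. Gm13841, on chr5:115801677-115802159 (minus strand), carries the same 3 differences as Gm8210 and no other. It had 270, 293 and 383 counts in the WAT AKO libraries, against 154, 194 and 155 in the WAT control libraries. In brown fat it had 156, 150 and 142 counts in the BAT AKO libraries, against 80, 94 and 83 in the BAT control libraries. The groups did not overlap in either tissue, and the log2 fold change was 0.80 (SE 0.181) in WAT and 0.80 (SE 0.138) in BAT, below the threshold for a call (edgeR quasi-likelihood test, adjusted p = 0.107 and 0.199). Identical sequences cannot be separated by any read that lies within them, so the split of counts between Gm8210 and Gm13841 is uncertain.

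Gm10709, a copy on chromosome 9 itself (chr9:7751725-7752204, plus strand, outside the interval that holds the members), was lower in AKO fat. It had 92, 101 and 126 counts in the WAT AKO libraries, against 230, 205 and 192 in the WAT control libraries. In BAT AKO it had 40, 66 and 41 counts, against 83, 94 and 88 in BAT control. Its log2 fold change was -1.09 (SE 0.185) in WAT and -0.84 (SE 0.254) in BAT, with adjusted p of 0.0799 and 0.286 by the same edgeR test. Gm14036 on chromosome 2, named after its values were seen, was likewise lower, at -1.24 in WAT and -0.67 in BAT on the log2 scale. Its adjusted p was 0.124 and 0.400 by the same edgeR test. It had 13, 13 and 25 counts in WAT AKO, against 32, 42 and 37 in WAT control. In BAT AKO its counts were only 8, 12 and 10, against 13, 19 and 16 in BAT control. Uimc1, a protein coding gene that matches Rpl29 over 441 bases and was left out of the sum above, averaged 40.7 ± 3.43 CPM in WAT AKO and 33.4 ± 2.63 CPM in WAT control, and 27.7 ± 0.939 CPM in BAT AKO and 28.7 ± 1.67 CPM in BAT control.

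Of 51 Rpl29 copies in the count table that match at least 80% of the coding bases, 27 hold C300T and 42 hold T423C, and 4 hold C72A. In all, 5 of the 51 reached 1 CPM in any library, and Gm8210 was chosen for being higher. Gm8210 and Gm13841, both higher in AKO fat, hold C72A. Gm10709 and Gm14036, both lower, hold C300T and T423C and have the base of Rpl29 at position 72. 4931440P22Rik holds C72A as well, with T423C, and matches Rpl29 at 441 bases, and its log2 fold change was -0.18 (SE 0.249) in WAT and 0.07 (SE 0.245) in BAT. This reading of the copies was made after their values were seen and has no test, and the bases that the sequenced RNA carried were not analysed here.

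**Figure D1:**
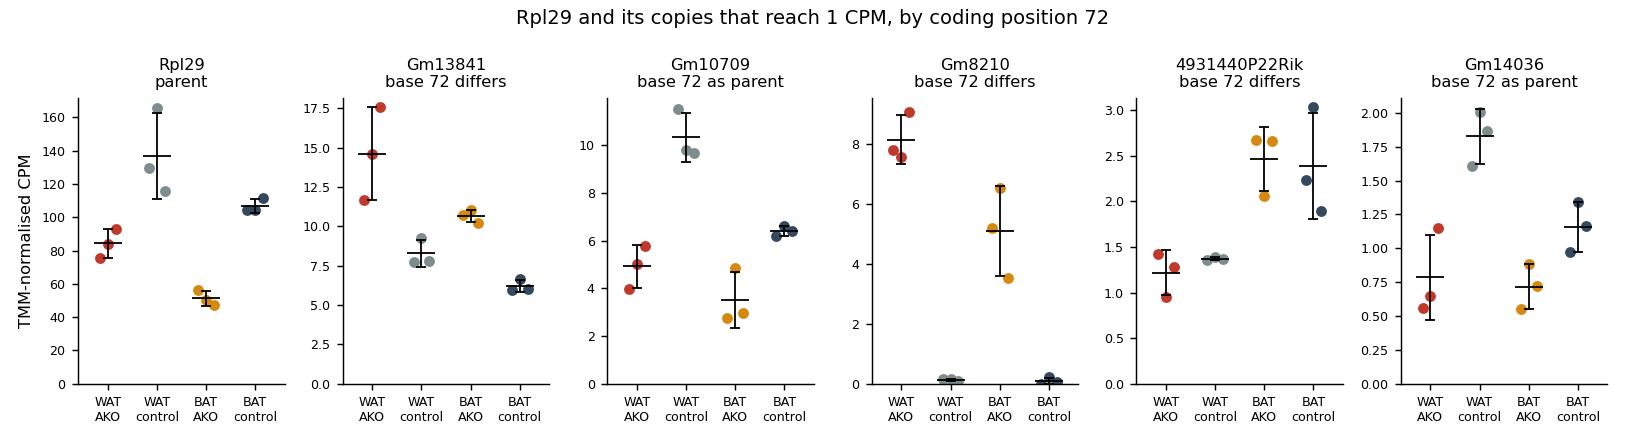
TMM-normalised CPM of Rpl29 and of its 5 copies that reach 1 CPM in a library, by group, each point a library and the bars mean and SD (n = 3). Gm8210 and Gm13841 sit higher in AKO than in control libraries of both tissues, and Gm10709 and Gm14036 lower, while 4931440P22Rik, which holds C72A as Gm8210 and Gm13841 do, overlaps.

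Most genes of the large ribosomal subunit were on the other side of 0 from Rpl29 in WAT. Of 47 such genes tested, 45 had a log2 fold change of AKO over control above 0, with a list median of 0.45 against 0.0049 over all genes tested, while Rpl29 was at -0.72. Only Rpl39l was lower, at -1.51 (SE 0.716), and its groups overlapped. In BAT 38 of the 47 were below 0, as Rpl29 was, with a list median of -0.08 against 0.0096 over all genes. Rpl29 at -1.04 was the lowest of the 47 there, next to Rpl39l at -1.003. None of the 47 was called in WAT, and Rpl29 was the only call in BAT. Scaled to library totals (log2 of FPKM plus 1), the list median was 0.58 in WAT and -0.13 in BAT, against 0.0874 and -0.0233 over all genes.

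Gm11868 repeated the pattern at a lower level. It lies on chr4:18844202-18845679 (minus strand), inside an intron of Gm11867, and covers coding bases 103 to 1587 of Cyb5r4, which lies on chr9:87022014-87077774 (plus strand). It had 43, 45 and 44 counts in the WAT AKO libraries, against 3, 2 and 2 in the WAT control libraries, and 40, 28 and 40 counts in the BAT AKO libraries, against 1, 1 and 3 in the BAT control libraries. The AKO libraries were all above the control libraries. Its log2 fold change was 4.05 (SE 0.317) in WAT and 4.32 (SE 0.417) in BAT, and the depth-scaled count ratio was 19.1 (9.02 to 48.4) in WAT and 20.9 (8.67 to 65.6) in BAT. Cyb5r4 had 506, 459 and 544 counts in the WAT AKO libraries, against 539, 639 and 526 in the WAT control libraries, and 378, 418 and 424 counts in the BAT AKO libraries, against 434, 364 and 401 in the BAT control libraries. It averaged 23.2 ± 1.57 CPM in WAT AKO and 28.0 ± 2.18 CPM in WAT control, without overlap, and 29.1 ± 2.73 CPM in BAT AKO and 29.1 ± 3.35 CPM in BAT control. Its log2 fold change was -0.29 (SE 0.101) in WAT and 0.02 (SE 0.121) in BAT. Of 9 tested cytochrome b5 and reductase genes in WAT and 8 in BAT, 0 were called by edgeR. Cyb5b, the cytochrome b5 of the outer mitochondrial membrane, was at -1.06 in WAT and 0.16 in BAT.

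Over 1478 aligned bases Gm11868 differed from Cyb5r4 by 23 substitutions and 7 missing bases. The stretch printed, coding bases 162 to 251, is the first ungapped one of 90 bases with the highest number of substitutions, 4 of the 23, and so shows the pair where it differs most. It holds C184T, T210C, C243T and C251T, marked by capitals, and lies at chr4:18845531-18845620 on the minus strand in Gm11868.
Cyb5r4: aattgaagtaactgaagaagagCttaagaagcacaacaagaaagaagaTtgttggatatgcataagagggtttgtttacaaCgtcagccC
Gm11868: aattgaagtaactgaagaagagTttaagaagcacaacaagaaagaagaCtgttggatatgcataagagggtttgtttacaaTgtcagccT

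Gm7049 was the least counted of the 4 pseudogenes in AKO fat. It lies on chr13:62813076-62814787 (plus strand) and shares 819 exon bases with Gm48795, a non-coding gene on the other strand that had 4 counts over all libraries. It had 30, 37 and 30 counts in the WAT AKO libraries, against 1, 0 and 6 in the WAT control libraries, and 26, 30 and 17 counts in the BAT AKO libraries, against 1 in each BAT control library. The AKO libraries were again all above the control libraries. The log2 fold change was 3.61 (SE 0.801) in WAT and 4.44 (SE 0.471) in BAT. The depth-scaled count ratio was 14.0 (6.56 to 35.8) in WAT and 23.5 (7.74 to 117) in BAT, intervals that cover counting error only.

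Me1, its parent on chr9:86581371-86695953 (minus strand), was lower in AKO fat by more counts than Gm7049 held. It had 5812, 7731 and 5120 counts in the WAT AKO libraries, against 13522, 11293 and 15588 in the WAT control libraries, and 4631, 3986 and 3553 counts in the BAT AKO libraries, against 5224, 5571 and 6249 in the BAT control libraries. It averaged 290 ± 82.3 CPM in WAT AKO and 668 ± 124 CPM in WAT control, and 289 ± 31.0 CPM in BAT AKO and 412 ± 37.2 CPM in BAT control. The groups did not overlap, and the log2 fold change was -1.22 (SE 0.253) in WAT and -0.49 (SE 0.116) in BAT. Among 15 tested genes that supply NADPH, 5 had groups that did not overlap in WAT, 4 lower and 1 higher, beside 14.5% lower and 15.9% higher of all genes tested. Those lower were Me1, Pgd at -0.66 and G6pdx at -0.48, both of the pentose phosphate pathway, and Idh1, the cytosolic isocitrate dehydrogenase, at -0.53. Mthfd1l, a mitochondrial folate enzyme, was higher at 1.11. In BAT 3 of 14 did not overlap, all lower (Me1, Pgd at -0.43 and G6pdx at -0.31), beside 11.5% lower of all genes. No gene of the list was called in either tissue by edgeR, with list medians of -0.12 in WAT and -0.23 in BAT; scaled to library totals the WAT median was 0.0185.

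Gm7049 differed from Me1 by 21 substitutions, 2 inserted and 4 missing bases over 1710 aligned bases. Coding bases 493 to 582 are printed by the same rule and hold 4 of the 21, G498A, G511A, C526T and T582C. In Gm7049 they lie at chr13:62813567-62813656.
Me1: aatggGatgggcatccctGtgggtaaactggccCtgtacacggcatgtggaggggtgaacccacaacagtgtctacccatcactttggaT
Gm7049: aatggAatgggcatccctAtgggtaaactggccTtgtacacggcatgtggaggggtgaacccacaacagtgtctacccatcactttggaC

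Tma7-ps was the only one of the 4 pseudogenes with a clear level in control fat. It lies on chr1:171711088-171711282 (plus strand) and is listed as a processed pseudogene by GENCODE and as protein coding by RefSeq. It had 249, 277 and 298 counts in the WAT AKO libraries, against 95, 107 and 75 in the WAT control libraries. In brown fat it had 212, 181 and 175 counts in the BAT AKO libraries, against 61, 64 and 66 in the BAT control libraries. It averaged 12.7 ± 1.71 CPM in WAT AKO and 4.55 ± 0.689 CPM in WAT control, and 13.5 ± 0.975 CPM in BAT AKO and 4.62 ± 0.164 CPM in BAT control. These levels correspond to log2 fold changes of 1.46 (SE 0.183) in WAT and 1.56 (SE 0.140) in BAT.

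Tma7, on chr9:109074568-109082587 (minus strand), had overlapping groups. It had 1307, 1263 and 1185 counts in the WAT AKO libraries, against 1289, 1414 and 1166 in the WAT control libraries, and 937, 839 and 824 counts in the BAT AKO libraries, against 855, 947 and 822 in the BAT control libraries. It averaged 57.9 ± 4.43 CPM in WAT AKO and 63.7 ± 4.44 CPM in WAT control, and 61.7 ± 2.44 CPM in BAT AKO and 63.4 ± 3.42 CPM in BAT control, with log2 fold changes of -0.16 (SE 0.104) in WAT and -0.02 (SE 0.0771) in BAT. Summed with Tma7-ps it averaged 70.7 ± 5.22 CPM in WAT AKO and 68.2 ± 5.13 CPM in WAT control, and 75.2 ± 3.41 CPM in BAT AKO and 68.1 ± 3.26 CPM in BAT control. Tma7 shares 75 exon bases with Ccdc51 on the other strand, and without a stated strand setting their reads cannot be told apart there. Of 8 tested factors that bind the ribosome or its recycling machinery, Tma7 among them, none was called in either tissue, and the list medians were -0.08 in WAT and -0.03 in BAT.

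The whole 195-base coding sequence of Tma7 and the whole of Tma7-ps are printed because the pair differs at only 2 of these bases, A123G and C141T. Neither changes a residue. Of the other 6 Tma7 copies read, all hold A123G and 1 holds C141T; the best counted of them, Gm15610, averaged 0.528 CPM in WAT AKO and 0.200 CPM in WAT control.
Tma7: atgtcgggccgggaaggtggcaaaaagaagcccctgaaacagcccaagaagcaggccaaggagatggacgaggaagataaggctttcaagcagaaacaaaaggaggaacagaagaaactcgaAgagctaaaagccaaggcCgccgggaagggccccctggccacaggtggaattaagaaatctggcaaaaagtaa
Tma7-ps: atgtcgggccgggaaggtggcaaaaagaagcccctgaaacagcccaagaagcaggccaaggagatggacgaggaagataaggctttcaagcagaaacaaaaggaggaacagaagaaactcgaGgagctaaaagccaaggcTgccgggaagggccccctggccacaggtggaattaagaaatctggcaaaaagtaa

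**Figure D2:**
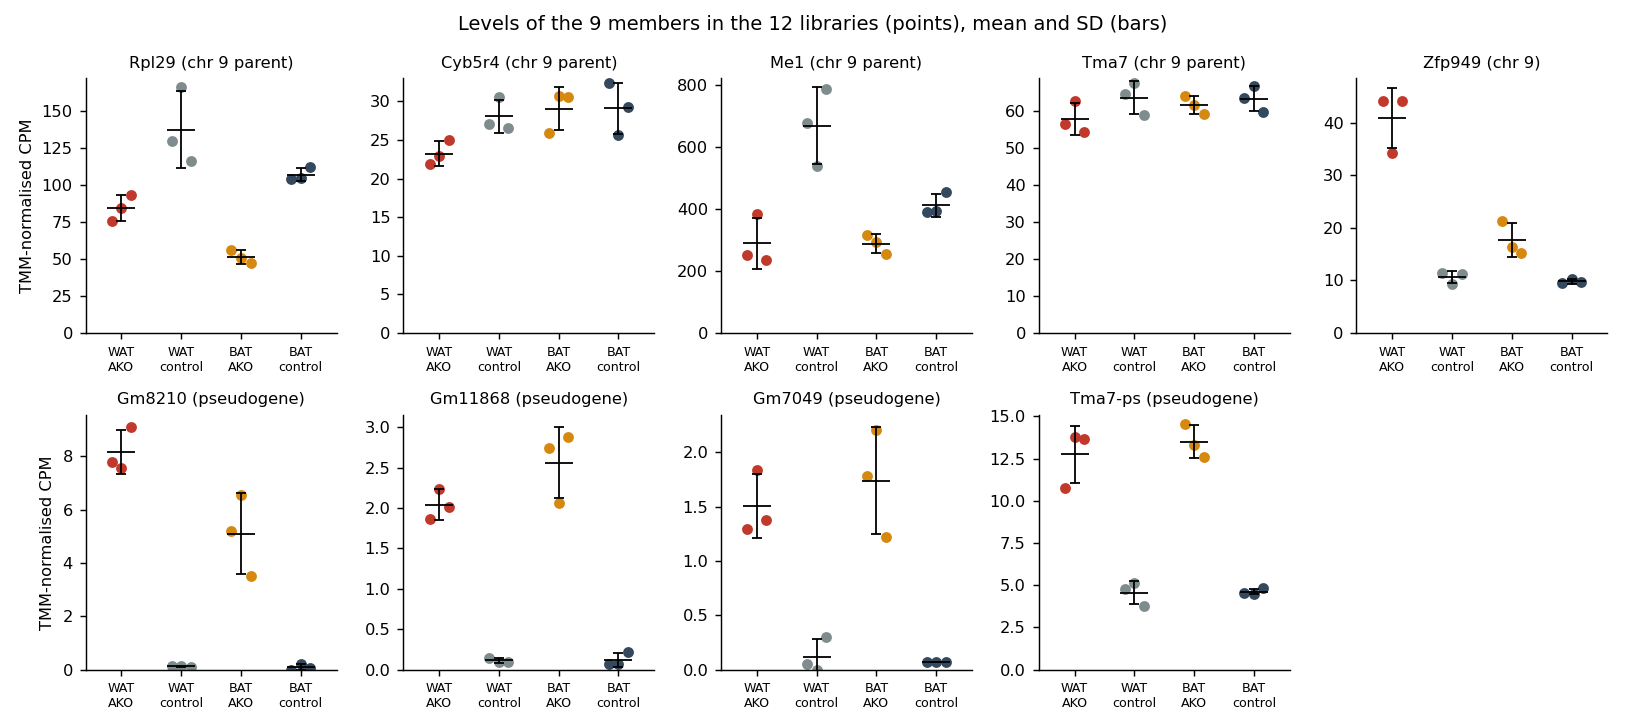
TMM-normalised CPM of the 9 members in each of the 12 libraries (points), with group mean and SD (bars, n = 3), parents and Zfp949 above and pseudogenes below. All 4 pseudogenes and Zfp949 sit higher in AKO than in control libraries of both tissues, and Rpl29 and Me1 lower.

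The share of a pair's counts that fell on the pseudogene overlapped between the depots in AKO mice and in controls alike. Gm8210 took 8.82% ± 0.540 of the counts of its pair in WAT AKO and 0.0965% ± 0.0167 in WAT control, and 8.96% ± 2.29 in BAT AKO and 0.0890% ± 0.103 in BAT control (SD, n = 3 each). Gm11868 took 8.08% ± 0.754 in WAT AKO and 0.415% ± 0.125 in WAT control, and 8.16% ± 1.69 in BAT AKO and 0.415% ± 0.284 in BAT control. Gm7049 took 0.524% ± 0.0539 in WAT AKO and 0.0153% ± 0.0204 in WAT control, and 0.594% ± 0.139 in BAT AKO and 0.0177% ± 0.00158 in BAT control. Tma7-ps took 18.0% ± 2.05 in WAT AKO and 6.65% ± 0.530 in WAT control, and 17.9% ± 0.487 in BAT AKO and 6.81% ± 0.566 in BAT control. In each pair the shares of the WAT AKO and BAT AKO libraries overlapped, and so did those of the control libraries. BAT control 1 had no count of Gm8210 among 1397 for the pair, which by the limit of 3 counts allows a share of up to 0.215%, and WAT control 2 none of Gm7049 among 11293, which allows up to 0.0266%. The 2-sided exact intervals of the share plot reach 0.264% and 0.0327% in these libraries.

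**Figure D3:**
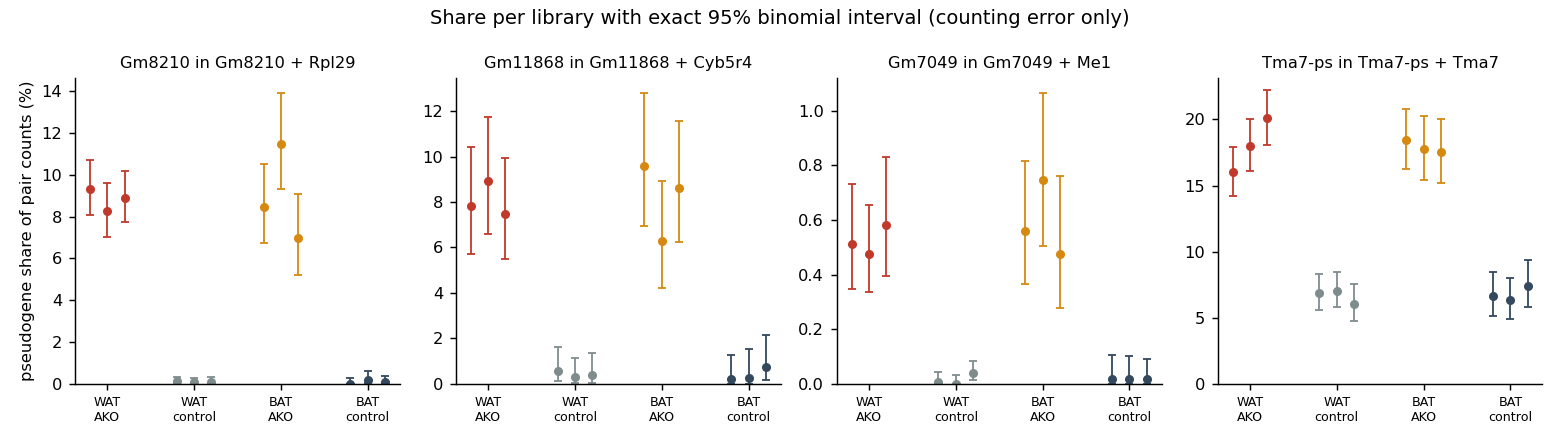
Pseudogene counts as a percent of the counts of pseudogene and parent, per library, with exact Clopper-Pearson 95% intervals for counting error. AKO libraries lie above control libraries in all 4 pairs, from 6.95% to 11.5% for Gm8210 and from 16.003% to 20.1% for Tma7-ps.

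Zfp949 has no pseudogene among the members and showed its own pattern. It lies on chr9:88548020-88571061 (plus strand), between Cyb5r4 and Rpl29. It had 1022, 688 and 963 counts in the WAT AKO libraries, against 226, 195 and 222 in the WAT control libraries. In brown fat it had 312, 223 and 212 counts in the BAT AKO libraries, against 127, 146 and 133 in the BAT control libraries. Within each tissue all AKO libraries were above all control libraries, and the WAT AKO libraries were above every other. It averaged 40.9 ± 5.73 CPM in WAT AKO and 10.6 ± 1.13 CPM in WAT control, a log2 fold change of 1.92 (SE 0.146), and 17.7 ± 3.26 CPM in BAT AKO and 9.81 ± 0.424 CPM in BAT control, a log2 fold change of 0.87 (SE 0.154). The log2 effect in BAT minus that in WAT was -1.09 (SE 0.214).

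The 3 other genes whose log2 CPM followed Zfp949 most closely over the 12 libraries, centred within each tissue, were Cad, Eif4a2 and Rnf157, none on chromosome 9, with root mean square differences of 0.369, 0.379 and 0.391 among 12865 genes compared. Those nearest to Rpl29 were Itgam on chromosome 7 at 0.203, S1pr2 on chromosome 9 at 0.223 and Fbxo27 on chromosome 7 at 0.224. Itgam is a surface protein of macrophages and other myeloid cells, and the part of those cells in its likeness to Rpl29 was not tested.

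By the edgeR quasi-likelihood test over all genes, 3 of the 9 members were called in WAT, all higher (Gm8210, Gm11868 and Zfp949), beside 0.0189% of all genes tested. In BAT 5 of the 9 were called, 4 pseudogenes higher and Rpl29 lower, beside 0.0771%. Without overlap of the groups, 5 members were higher in WAT AKO and 3 lower, beside 15.9% and 14.5% of all genes, and 5 were higher in BAT AKO and 2 lower, beside 8.19% and 11.5%. These counts follow from how the members were chosen and nothing is read from them. Without WAT control 2 the count in WAT was 7, where 1066 of all 16376 genes tested were called higher and 583 lower. Without any other 1 library of that comparison the count of members was 1. In BAT it was 5 without BAT control 2, where 34 of all 14588 genes were called higher and 61 lower, and 0 without any other. No member was called for a difference of the AKO effects between tissues, beside 0.275% of all genes. There 2 of the 9 had an unadjusted p under 0.05, beside 3022 of all 16391 genes. DESeq2 called 1 of the 9, where it called 617 of all genes with a difference above 0 and 356 below.

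With each pair summed to 1 row, 0 of the 4 sums were called in either tissue by edgeR, 2 in each had an unadjusted p under 0.05, and DESeq2 called 2 in each. With rows not summed, edgeR gave an unadjusted p under 0.05 to 3597 of all 15915 genes in WAT and 1942 of 14265 in BAT. DESeq2 there called 700 genes higher and 979 lower in WAT, and 133 and 147 in BAT. The sums hold pseudogenes that were chosen on this comparison, so nothing is read from these counts. The log2 fold changes of the sums were -0.59 for Rpl29, -0.18 for Cyb5r4, -1.21 for Me1 and 0.03 for Tma7 in WAT. In BAT they were -0.90 for Rpl29, 0.14 for Cyb5r4, -0.48 for Me1 and 0.17 for Tma7.

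The rule names no contrast between depots, but the libraries are those whose values chose the pseudogenes and were in view for Zfp949, and 3 pseudogenes passed the filter in AKO alone. The depot values of the pseudogenes and Zfp949 are thus a description, their adjusted p included. In control mice, Me1 was the only 1 of the 6 members tested that was called, lower in BAT than in WAT (log2 fold change -0.70, SE 0.163, adjusted p = 0.0111, edgeR), beside 50.1% of all genes called. That call was lost without BAT control 1 (adjusted p = 0.0530) and without the library of each group with most muscle counts (0.110). Rpl29 was at -0.37 (adjusted p = 0.0791, edgeR), and was called under 4 of 16 alternatives. Cyb5r4, Tma7-ps, Tma7 and Zfp949 lay between -0.12 and 0.04. The other pseudogenes did not pass the filter on low counts there.

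In AKO mice all 9 members were tested between depots, and 3 were called, beside 59.3% of all genes. Zfp949 was lower in BAT AKO than in WAT AKO (log2 fold change -1.14, SE 0.161, adjusted p = 0.000684), and so was Rpl29 (-0.64, SE 0.110, adjusted p = 0.00176). Both calls held under all 16 alternatives. For Rpl29 this lay beside a median of -0.66 over 48 large subunit genes. Cyb5r4 was higher in BAT AKO (0.39, SE 0.111, adjusted p = 0.0173), but scaled to library totals (FPKM, pseudocount 1) it was at -0.15, where the median of all genes was -0.37 in place of -0.02. With that scaling 19.4% of calls were higher in BAT, against 48.5% with TMM, and in controls 26.7% against 48.7%. The Cyb5r4 call was also lost without WAT AKO 1 (adjusted p = 0.0746) and without the library of each group with most muscle counts (0.0670). Of the pseudogenes, Gm8210 was at -0.60 (adjusted p = 0.0591), and Gm11868, Gm7049 and Tma7-ps lay between 0.15 and 0.40 without a call.

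Divided by gene length, the members differed widely. The lengths behind the authors' FPKM were 195 bases for Tma7-ps and 1359 for Tma7, and 483 for Gm8210 and 1126 for Rpl29. The order of a copy and its parent thus depends on these lengths as well as on counts. Tma7-ps had fewer counts than Tma7 in every library. In the authors' FPKM, which divide by gene length, Rpl29 at 90.7 ± 10.5 and Me1 at 90.5 ± 20.1 led in WAT AKO. They were followed by Tma7-ps at 78.9 ± 9.09, whose libraries overlapped with those of both, and Tma7 at 51.5 ± 1.44, Gm8210 at 20.5 ± 2.84, Zfp949 at 12.1 ± 2.31 and Cyb5r4 at 4.18 ± 0.395. Gm11868 had 1.67 ± 0.0762 and Gm7049 1.06 ± 0.143. In WAT control the order was Me1 at 193 ± 32.3, Rpl29 at 137 ± 32.5, Tma7 at 52.4 ± 5.59, Tma7-ps at 26.2 ± 4.66, Cyb5r4 at 4.67 ± 0.613 and Zfp949 at 2.88 ± 0.186, with the other 3 pseudogenes at 0.304 or less. The Me1 and Rpl29 libraries overlapped there. In BAT AKO it was Me1 at 64.0 ± 7.37, Tma7-ps at 59.0 ± 4.85, Rpl29 at 38.9 ± 3.84 and Tma7 at 38.8 ± 1.88, where Me1 overlapped with Tma7-ps, and Rpl29 with Tma7. In BAT control it was Me1 at 93.0 ± 8.89, Rpl29 at 82.3 ± 3.85, Tma7 at 40.5 ± 2.31 and Tma7-ps at 20.6 ± 0.823, with overlap of Me1 and Rpl29.

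On chromosome 9 the 5 members there span an interval of 22.5 megabases. Counted from the start of Zfp949, Me1 starts at -1.97 megabases, Cyb5r4 at -1.53, Rpl29 at 17.9 and Tma7 at 20.5. In WAT, 188 other genes of the interval were tested, and 36 of them were higher in AKO and 41 lower without overlap of the groups, or 19.1% and 21.8%, beside 15.9% and 14.5% of all genes. In BAT the 169 other genes gave 13 higher and 24 lower, or 7.69% and 14.2%, beside 8.19% and 11.5%. None was called in either tissue by edgeR. Unadjusted p was under 0.001 for 6 of them in WAT (3.19%, against 1.22% of all genes) and for 2 in BAT (1.18%, against 0.449%).

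Within 1 megabase of Rpl29, Parp3, a poly-ADP-ribosyltransferase, was at -1.02 (SE 0.144, adjusted p = 0.0721, edgeR) in WAT and -0.40 (SE 0.107, adjusted p = 0.264) in BAT. Ppm1m, a protein phosphatase, was at -0.68 in WAT and -0.15 in BAT. Near Zfp949, Nt5e, the ectonucleotidase CD73, was at 0.79 in WAT and -0.48 in BAT. Bcl2a1a, a Bcl2-family gene with near-identical copies that make its counts uncertain, was at 1.89 (SE 0.417, adjusted p = 0.103, edgeR) in WAT and not tested in BAT. Near Cyb5r4, Tbx18, a transcription factor, was at -0.97 in WAT and -0.37 in BAT. Within the flanks of Me1 the gene with the smallest p was 4933431K14Rik in both tissues, at 1.28 in WAT and 0.58 in BAT, and near Tma7 it was Impdh2 in WAT and Ip6k2 in BAT. No neighbour of any member was called.

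**Figure D4:**
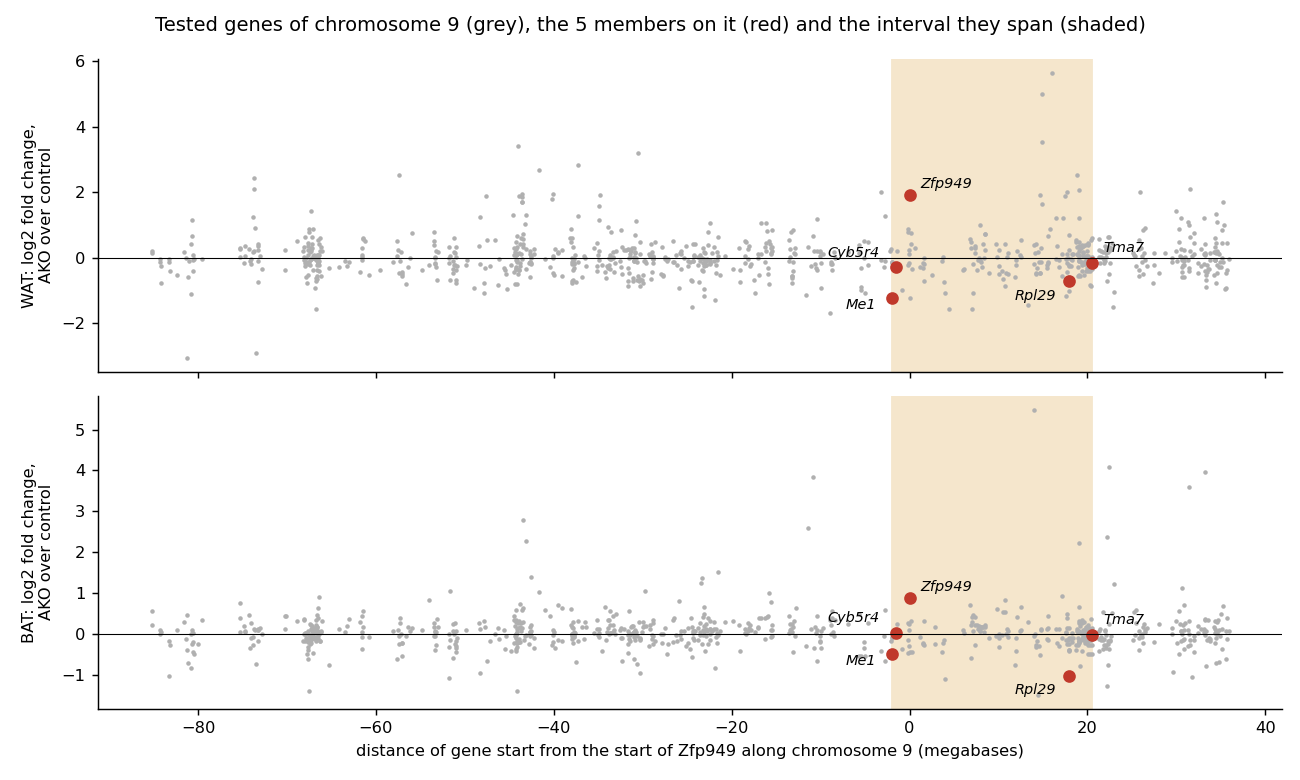
Log2 fold change of AKO over control for every tested gene of chromosome 9, against the distance of its start from that of Zfp949 in megabases, WAT above and BAT below. The members (red) lie in the shaded interval, with Zfp949 at 1.92 in WAT and 0.87 in BAT and Rpl29 at -0.72 and -1.04.

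The 4 pseudogenes were set beside all others of their annotated class. In WAT 499 processed pseudogenes passed the filter, and 441 of them matched a protein coding transcript at 95% identity or more over at least 80% of their length. The parent lay on chromosome 9 for 22 of these, of which 8 (36.4%) were higher in AKO without overlap of the groups, against 66 of 419 (15.8%) with a parent elsewhere. In BAT 377 of 424 matched, and 5 of 22 (22.7%) with a parent on chromosome 9 were higher, against 11 of 355 (3.10%) elsewhere. The 4 members are among those 22 in each tissue and were chosen for being higher, so the shares hold no test.

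Of the 9 with a parent inside the interval, 5 were higher, 2 lower and 2 overlapped in each tissue. The higher 5 were the 4 members and Gm13841, and the lower 2 were Gm10709 and Gm14036. The 2 that overlapped were Impdh2-ps, at 0.33 in WAT and -0.16 in BAT, and Gm12263, a copy of Arih2, at 0.27 in WAT and -0.23 in BAT. Of the 13 with a parent elsewhere on chromosome 9, 3 were higher in WAT and 0 in BAT. An unadjusted p under 0.001 was reached in BAT by 5 of the 377 pseudogenes, the 4 members and Gm13841. In WAT 5 of the 441 reached it: Gm8210, Gm11868, Tma7-ps, Gm10709, and Gm20056, a copy of Chp1 on chromosome 2, at -2.04. The 4 members were chosen for being higher, and their parents set the bounds of the interval. These counts therefore hold no test, and apart from the members only Gm13841 was higher inside the interval.

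**Figure D5:**
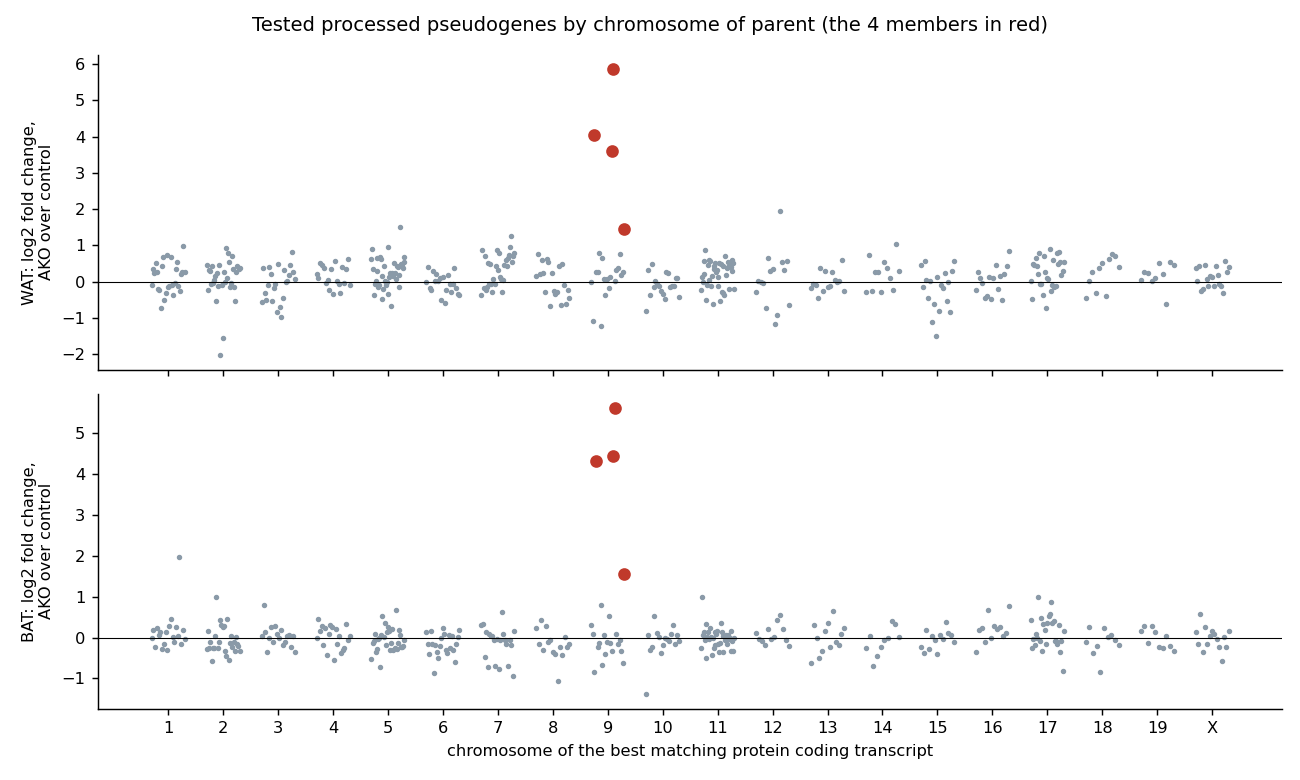
Log2 fold change of AKO over control of tested processed pseudogenes, by the chromosome of the protein coding transcript they match best, WAT above and BAT below. The 4 members (red), all with a parent on chromosome 9, were chosen for being higher. Among them Gm8210 is highest, at 5.87 in WAT and 5.62 in BAT, and Tma7-ps lowest, at 1.46 and 1.56. The highest with a parent elsewhere is at 1.94 in WAT and 1.97 in BAT, above Tma7-ps.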

How the data were processed

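PolyA RNA of 12 libraries was sequenced, 3 each of WAT AKO, WAT control, BAT AKO and BAT control. The authors deposited raw read counts per Ensembl gene and a second table of FPKM, which equal the counts divided by gene length and library total. Per the submitters' processing notes, Bowtie2 2.2.3, HISAT2 2.1.0, HTSeq 0.6.0 and the mm10 build were used; how strand and reads with several matching places were handled is not given in the sources used here. Such handling decides how reads divide between a parent and its copies, so all counts of the pairs are uncertain to that extent.

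The counts were tested with edgeR 4.0.16 (quasi-likelihood F-test, TMM, filterByExpr, minimum count 10, minimum total 15) over all genes, with Benjamini-Hochberg adjustment and a threshold of 0.05, in R 4.3.3. DESeq2 1.42.0, limma 3.58.1 (voom, and log2 of FPKM plus 1 or 0.1), RLE normalisation, other filters, a replicate block, all 12 libraries in 1 fit and omission of libraries were alternatives. The script was tested on simulated data. Copies were found with blastn 2.17.0 at 90% identity or more over at least 100 bases and compared with their parents in Biopython 1.88, using GENCODE M21. Share intervals are exact Clopper-Pearson 95% intervals, and a count of 0 allows 3 counts; both cover counting error only. Library totals of 15692588 to 18967159 set the precision of the low pseudogene counts.

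Same-numbered WAT and BAT libraries deviated together to varying degrees over 12877 genes (r = 0.633, 0.272 and 0.56 in controls, 0.697, 0.749 and 0.153 in AKO). No label says that they share an animal, and libraries with unlike numbers were not compared, so a pairing of the depots was not settled. The replicate block left the number of members called between depots unchanged. The members and lists were chosen with earlier results of these data known. Besides the members, the text names up to 3 copies per parent by mean count, up to 2 neighbours within 1 megabase by p, the 3 genes most like Zfp949 and Rpl29, and up to 4 genes of a list by p. Other names were chosen after their values were seen.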

Additional observations from a re-analysis of the deposited data

Results flagged for a closer look

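Cyb5b, of the same list as Cyb5r4, differed between the tissues in its AKO effect: the log2 effect in BAT minus that in WAT was 1.18 (SE 0.192, adjusted p = 0.0433, edgeR quasi-likelihood test of the interaction). Its log2 fold change of AKO over control was 0.16 in BAT and -1.06 in WAT. The adjusted p of the difference was 0.0545 with the replicate block, 0.190 without the library of each group with most muscle counts, where no gene was called, and 0.00955 to 0.137 without 1 library. The call was lost on omission of WAT control 3, WAT AKO 1, WAT AKO 3, BAT control 1, BAT control 3 or any BAT AKO library.

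In 5 other genes, all neighbours of members or of the large ribosomal subunit, every WAT AKO library was above every WAT control library. In the same 5 every BAT AKO library was below every BAT control library. Of all genes tested, 15.9% were higher in WAT AKO and 11.5% lower in BAT AKO without overlap. The 5 were picked for meeting both conditions at once. The share of all genes that meet both was not counted, so nothing is read from their number. Of the 47 large subunit genes tested in each tissue, 25 were higher in WAT AKO and 18 lower in BAT AKO. Among the 5, the log2 fold changes of AKO over control were 0.45 in WAT and -0.48 in BAT for Impdh2, a neighbour of Tma7. They were 0.24 and -0.42 for Rrp9, a neighbour of Rpl29. Among the large ribosomal subunit genes they were 0.53 in WAT and -0.23 in BAT for Rpl10a, 0.44 and -0.10 for Rpl32, and 0.56 and -0.06 for Rpl37a. The difference between tissues was not called for any of the 5 (edgeR, adjusted p = 0.0646 for Impdh2, 0.0884 for Rrp9, 0.101 for Rpl10a, 0.171 for Rpl32 and 0.140 for Rpl37a).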

How the results depend on the processing

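The direction of AKO against control was kept under every alternative in which they were tested by Gm8210, Gm11868, Gm7049, Tma7-ps and Zfp949 (higher) and by Rpl29 and Me1 (lower) in both tissues. The pseudogenes were chosen for being higher in these same libraries, and Zfp949 with its values in view. That their direction was kept therefore holds no test. Sizes of the sparse pseudogenes moved: the log2 fold change ran from 4.03 to 5.999 in WAT and 3.07 to 6.81 in BAT for Gm8210, from 1.29 to 4.27 and 1.21 to 5.003 for Gm11868, and from 0.94 to 5.62 and 0.84 to 4.65 for Gm7049, lowest with FPKM plus 1. The number of members called was less stable. In WAT, 3 in the main test, it was 5 with no filter, 7 with DESeq2, 1 with voom, 0 with the replicate block, 7 with all 12 libraries in 1 fit, 0 without the library of each group with most muscle counts, and 1 to 7 without 1 library. In BAT, 5 in the main test, it was 3 at 2 CPM or more (7 members tested), 0 with the replicate block, 0 without the muscle-rich libraries and 0 to 5 without 1 library. Same-numbered AKO and control libraries share only a number (r of -0.578, 0.036 and 0.313 in WAT, and -0.751, -0.384 and 0.149 in BAT). For a difference of AKO effects, 0 in the main test, DESeq2 gave 1, FPKM gave 1 with either pseudocount, and omission of 1 library 0 to 1. Of the pair sums, 0 in the main test, DESeq2 called 2 in each tissue, and omission of 1 library 0 to 1 in each. Between depots in controls, 1 in the main test, the count was 4 with FPKM at either pseudocount, 2 with all 12 libraries, 0 without the muscle-rich libraries and 0 to 2 without 1 library. In AKO, 3 in the main test, it was 6 with FPKM at either pseudocount and 2 to 4 without 1 library. The number of all genes called moved too, so nothing is read from these counts. In WAT it was 3 higher and 0 lower of 15915 in the main test, and 700 and 979 with DESeq2. It was 439 and 591 of 16391 with all 12 libraries in 1 fit. With FPKM plus 1 between depots it was 2184 and 6008 of 15031 in controls, and 2092 and 8708 of 15671 in AKO. The cause was not tested.

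Directions near 0 turned round between depots. In controls, Cyb5r4 was at -0.26 and -0.31 with FPKM plus 1 and plus 0.1, -0.034 without the muscle-rich libraries and -0.03 to 0.13 without 1 library (-0.030 without BAT control 1). Tma7-ps was at -0.021 with no filter, -0.32 and -0.33 with FPKM, and -0.11 (without WAT control 3) to 0.12 without 1 library, with -0.0046 without BAT control 3. Tma7 was at 0.026 without the muscle-rich libraries and -0.070 to 0.043 without 1 library, above 0 without WAT control 1, WAT control 2 or BAT control 3. In AKO with FPKM plus 1 and plus 0.1, Gm11868 was at -0.11 and -0.18, Cyb5r4 at -0.15 and -0.18, Gm7049 at -0.15 and -0.29, Me1 at -0.48 and -0.48, Tma7-ps at -0.41 and -0.42, and Tma7 at -0.40 and -0.41. Me1 was also at -0.0079 with all 12 libraries, and -0.069 to 0.34 without 1 library, below 0 without WAT AKO 1, WAT AKO 3 or BAT AKO 1.

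Pseudogene shares computed from FPKM, which divide by each gene's length, were larger by construction. Gm8210 then took 18.4% in WAT AKO and 0.225% in WAT control, and 18.6% in BAT AKO and 0.207% in BAT control. Gm11868 took 28.6% in WAT AKO and 1.86% in WAT control, and 28.7% in BAT AKO and 1.86% in BAT control. Gm7049 took 1.17% in WAT AKO, 1.32% in BAT AKO and 0.0398% in BAT control. Tma7-ps took 60.4% in WAT AKO and 33.1% in WAT control, and 60.3% in BAT AKO and 33.7% in BAT control. Interval genes without overlap, here with the members included, numbered 37 higher in WAT, 14 higher in BAT and 26 lower in BAT with all libraries. As fewer libraries allow more, they numbered 65 higher in WAT, 37 higher in BAT and 51 lower in BAT without the muscle-rich libraries. Without 1 library they numbered 15 to 31 higher and 35 to 41 lower in BAT. The share of all genes under these settings was not counted, so nothing is read from the rise. Omission of libraries for the shares and the pseudogene class, and of muscle-rich libraries for the interval and that class, was chosen after seeing the data. Low control counts, 0 to 6 per library for 3 pseudogenes, limit how precisely their ratios can be given.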
